A study of Mus musculus with 6 samples.

Results

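Genes for the folding, disulfide bonding, membrane entry and disposal of proteins in the endoplasmic reticulum were followed in E0771, a tumour cell line that arose in the mammary gland of a C57BL/6 mouse, and in E0771-HML2, its metastasis-selected derivative. The set holds 37 genes named by function: luminal chaperones and their cofactors, protein disulfide isomerases and oxidases, the stress sensors Ern1 and Atf6 with the transcription factor Xbp1, factors of endoplasmic reticulum-associated degradation, and subunits of the translocon. All 37 had a probe set with 1 gene symbol among the 18193 genes so represented on the array, and each gene was taken from its brightest probe set over all 6 arrays, a choice that does not use the difference between the groups. Ero1l and Ero1lb appear under their current names Ero1a and Ero1b.

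The parental group was 3 cultures of unselected E0771 cells. The HML2 group was 3 cultures of a second-generation population, obtained by implanting E0771 into the fat pad of the mammary gland, recovering cells from the lung and passing them through the animal again. Neither group received a drug or a gene alteration according to the labels, every culture was grown in serum-containing medium (10% FBS) over 3 days, and it is not stated if different animals gave rise to the HML2 cultures. The cultures are called biological replicates, so p-values measure the spread between cultures. RNA was hybridised to short-oligonucleotide Affymetrix whole-genome mouse arrays, 1 per culture, and the values are MAS5 signals, which summarise the probes for 1 transcript on a linear scale and cannot be compared between probe sets as amounts of RNA.

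Proteins destined for the cell surface, for secretion or for the endomembrane system enter the endoplasmic reticulum through the Sec61 channel. There BiP (Hspa5) and GRP94 (Hsp90b1) hold the unfolded chain, J-domain proteins steer BiP, calnexin and calreticulin read its sugars, and protein disulfide isomerases, reoxidised by Ero1 enzymes, form and shuffle its disulfide bonds. Chains that do not fold are trimmed by EDEM proteins, recognised by Os9, passed out through the Sel1l-Syvn1 ubiquitin ligase and derlins, and destroyed by the proteasome. When unfolded chains build up, Ern1 (IRE1) splices Xbp1 messenger RNA and Atf6 is cut to an active factor. Both raise chaperone and degradation genes through promoter elements, whereas the kinase PERK (Eif2ak3) acts through Atf4.

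The promoters were searched for the letters of these elements, and 13 of 31 held at least 1. In RefSeq promoters of 300 bases (250 before to 50 after the start, build GRCm38.p6), available for 31 of the 37 genes, 3 motifs were searched on both strands. The endoplasmic reticulum stress element, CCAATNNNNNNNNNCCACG, was found in 10 of the 31 genes and in 0.137% of the 27025 genes with a promoter. The related element ERSE-II (ATTGG, then any base, then CCACG) was in 2 of the 31 and in 0.0444% of all genes. The core of the unfolded protein response element, TGACGTG, was in 2 of the 31 and in 2.22% of all genes. No match of one motif overlapped a match of another in these 31 genes. The stress element stood in Hspa5, Hsp90b1, Calr, Canx, Creld2, Ero1b, Derl3, Syvn1, Pdia6 and Dnajc3. The 250 bases before the start are shown for 5 genes, because Hspa5, Hsp90b1 and Herpud1 were not called different whereas Pdia6 and Dnajc3, which carry the same element as Hspa5, fell. Capitals mark the fixed letters of a motif, read 5′ to 3′ on the strand of the gene.
Hspa5, chr2:34771840-34772089, plus strand: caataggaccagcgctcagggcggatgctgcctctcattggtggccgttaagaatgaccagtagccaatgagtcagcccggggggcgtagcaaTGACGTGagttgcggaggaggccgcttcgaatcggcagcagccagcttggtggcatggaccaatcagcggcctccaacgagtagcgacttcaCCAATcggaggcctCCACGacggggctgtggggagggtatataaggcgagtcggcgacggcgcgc
Hsp90b1, chr10:86705445-86705694, minus strand: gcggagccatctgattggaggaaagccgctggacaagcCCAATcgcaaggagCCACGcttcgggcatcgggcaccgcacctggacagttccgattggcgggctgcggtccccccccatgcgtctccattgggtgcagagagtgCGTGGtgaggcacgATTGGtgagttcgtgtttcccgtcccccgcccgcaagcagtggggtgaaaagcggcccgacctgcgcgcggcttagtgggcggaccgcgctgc
Pdia6, chr12:17266339-17266588, plus strand: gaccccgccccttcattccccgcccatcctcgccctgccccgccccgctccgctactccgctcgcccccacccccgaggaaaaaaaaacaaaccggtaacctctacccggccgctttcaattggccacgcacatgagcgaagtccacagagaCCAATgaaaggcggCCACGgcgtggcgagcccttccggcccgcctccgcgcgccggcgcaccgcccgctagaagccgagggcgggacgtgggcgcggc
Dnajc3, chr14:118937682-118937931, plus strand: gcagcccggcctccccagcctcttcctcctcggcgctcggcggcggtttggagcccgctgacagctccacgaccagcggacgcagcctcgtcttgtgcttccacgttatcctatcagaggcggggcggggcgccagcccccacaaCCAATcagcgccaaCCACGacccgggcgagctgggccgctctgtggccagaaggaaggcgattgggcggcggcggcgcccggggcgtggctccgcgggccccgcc
Herpud1, chr8:94386179-94386428, plus strand: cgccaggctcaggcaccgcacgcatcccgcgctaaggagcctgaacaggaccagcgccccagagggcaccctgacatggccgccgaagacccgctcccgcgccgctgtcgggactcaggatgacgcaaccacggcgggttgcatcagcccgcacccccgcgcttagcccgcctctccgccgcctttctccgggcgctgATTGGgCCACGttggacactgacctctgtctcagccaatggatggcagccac
The exact match in Hspa5 begins 65 bases before the start, that in Pdia6 98 bases before and that in Dnajc3 105 bases before. Variants that differ from the searched letters were not looked for, so further elements may be unmarked. Hsp90b1 has 1 copy on each strand, beginning 212 and 107 bases before the start. A match is a description of the letters and was not tested as a binding site. The set was made of the kinds of genes these elements are known to act on. Its higher shares are therefore no independent result.

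Signals had been scaled to the same trimmed mean (500.003), and the share of probe sets at or over 100 ranged from 39.6% to 41.5%. HML2 replicate 1 stood apart from the other HML2 arrays for some of the genes followed here, by more than 1 on the log2 scale for 3 of them: Ero1a (1.39), Ern1 (1.48) and Atf6 (1.44). The median SD between arrays over the 36 genes tested was 0.14 in parental and 0.27 in HML2 cells, against 0.16 and 0.20 over all genes tested. Control probe sets at the 3′ and 5′ ends of a transcript give a ratio that is a sign of RNA integrity. It was lower in HML2 cells for beta-actin, by 0.086 on the log2 scale (exact two-sided permutation p = 0.1, the smallest that 3 against 3 arrays allow), and by 0.017 for Gapdh (exact p = 0.7). Of 5 mammary epithelial markers, 3 were under the signal filter described next, among them Cdh1 (3.76 to 45.1), the epithelial cadherin. Their summed signal was 1266 to 1355 in parental and 3782 to 5057 in HML2 cells, of which the keratin gene Krt8 made up 81.4% to 86.7% and 94.96% to 96.4%. Krt8 rose (log2 difference 1.87), whereas Epcam, the other marker tested, was lower on every HML2 array without being called (132.9 against 83.5, log2 difference -0.45). Summed signals were 276 to 370.1 and 210 to 341 for 6 leukocyte markers, of which Lyz2 fell (-0.91), 61.2 to 136 and 107 to 135 for 4 endothelial markers, and 113 to 205 and 136 to 247 for 4 lung epithelial markers. Cd68, a leukocyte marker under the filter, read 216 on HML2 replicate 1 against 47.6 to 75.2 on the other arrays. The leukocyte marker Ptprc read 0.99 to 19.8 in all, within or under the range of bacterial control probe sets (1.97 to 36.2). The part of these markers and of RNA integrity in the results was not tested.

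HML2 and parental cells were compared on log2(signal + 50). Genes whose signal averaged 100 or more were tested with limma, and a gene was called at a Benjamini-Hochberg adjusted p below 0.05 over all 9361 genes tested. Of the 37 genes 36 were tested. Derl3, a derlin gene, was under the filter with signals of 43.4 to 75.4 in parental and 42.8 to 83.8 in HML2 cells. In all 8 genes fell and 1 rose in HML2 cells, against 14.9% lower, 12.3% higher and 27.2% called in either direction among all genes tested. The median log2 difference, HML2 minus parental, was -0.19 over the 36 genes and -0.019 over all genes tested. By role, of 8 isomerases and oxidases 4 fell, of 4 J-domain genes 2 fell, of 3 translocon genes 1 fell, and of 9 degradation genes tested 1 fell and 1 rose. None of 7 genes for HSP70 and HSP90 chaperones and their cofactors was called, nor any of 2 lectin chaperone genes. Of the 3 genes Ern1, Atf6 and Xbp1 none was called. Whether the roles differ from each other was not tested. The HML2 arrays lay wholly below the parental arrays for 10 of the 36 genes and wholly above for 2, against 23.8% and 20.6% of all genes tested (44.4% in either direction). With the replicate number as a block 11 genes of the set were lower and 2 higher, when 19.6% and 17.8% of all genes tested were. Without HML2 replicate 1 there were 13 lower genes (19.7% of all genes), and without parental replicate 1 or parental replicate 3 there were 5 (10.1% and 8.5% of all genes).

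**Figure D1:**
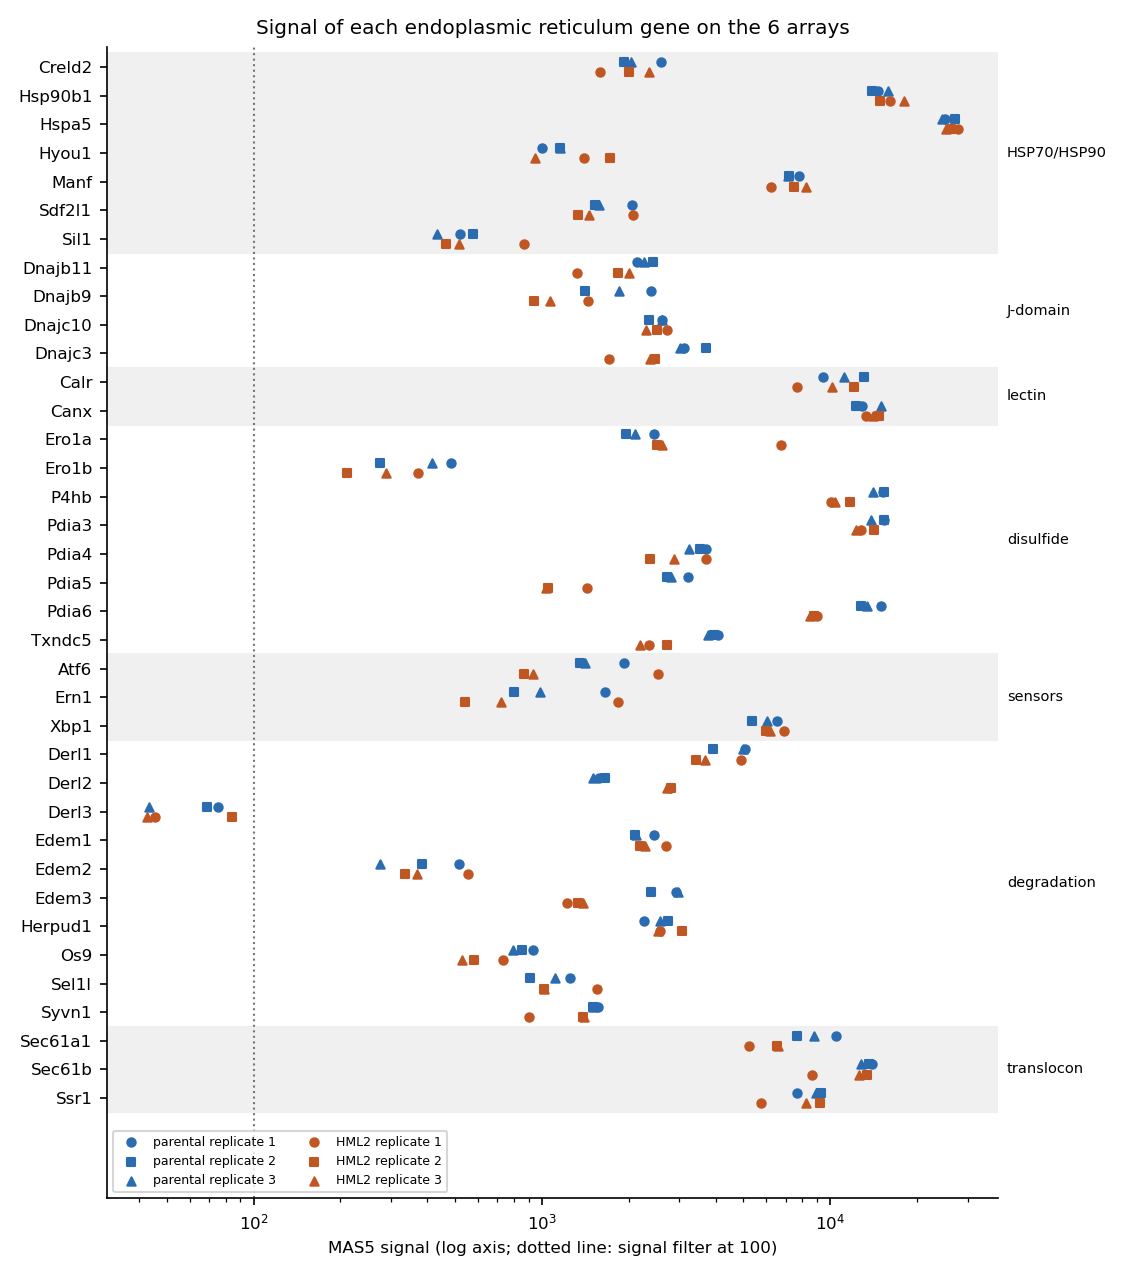
MAS5 signals (log axis) of all 37 genes on each of the 6 arrays, grouped by role. Blue marks are parental and orange marks HML2 arrays, and the marker shape gives the replicate number. The HML2 marks lie apart from the parental ones for Pdia5, Pdia6, P4hb, Txndc5, Edem3 and Derl2, and overlap them for Hspa5 and Xbp1. Signals of different genes are not comparable.

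**Figure D2:**
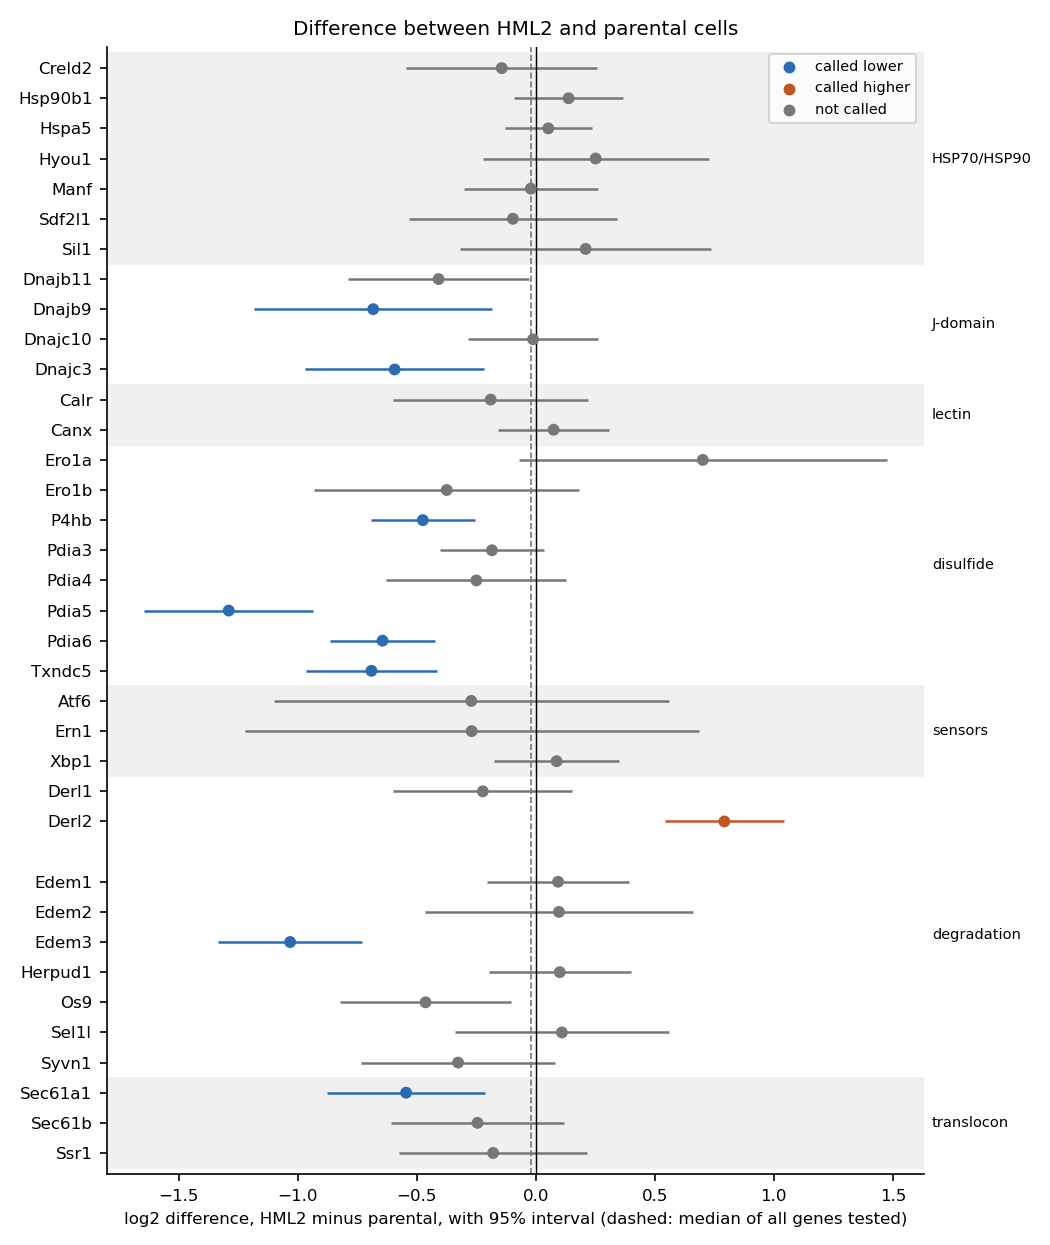
The log2 difference (HML2 minus parental) with its 95% confidence interval for the 36 genes tested, by role. Blue genes were called lower, the orange gene higher and grey genes not called. The 8 lower genes lie among the J-domain, disulfide, degradation and translocon genes.

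None of the genes for HSP70 and HSP90 chaperones of the lumen and their cofactors was called. Hspa5, which encodes BiP, had signals of 25003, 26993 and 24383 in parental and 27663, 26302 and 25247 in HML2 cells. The groups overlapped, and the log2 difference of 0.053 ± 0.080 (SE) had a 95% interval of -0.13 to 0.24 (adjusted p = 0.67). Hsp90b1, which encodes GRP94, read 14627, 13977 and 15803 in parental and 16077, 14874 and 18015 in HML2 cells, again with overlap (0.14 ± 0.10, interval -0.09 to 0.37, adjusted p = 0.34). The nucleotide exchange factors of BiP, Hyou1 and Sil1, had differences of 0.25 and 0.21 with wide intervals, -0.22 to 0.73 and -0.32 to 0.74. The stress-induced cofactor genes Sdf2l1 (-0.096), Manf (-0.021) and Creld2 (-0.14) were not called, and leaving out 1 array turned the sign of each. The lectin chaperone gene Calr had a difference of -0.19 (interval -0.60 to 0.22), and Canx, which encodes calnexin, of 0.075 (-0.16 to 0.31).

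J-domain proteins, which bring clients to BiP and trigger its ATPase, were lower in part. Dnajc3, which encodes p58IPK, had signals of 3109, 3719 and 3021 in parental and 1704, 2469 and 2365 in HML2 cells. Every HML2 array was below every parental array, and the gene fell by 0.59 on the log2 scale (SE 0.17, adjusted p = 0.030). All 5 of its tested probe sets had negative differences, and 3 were called, with the largest at -0.98. Dnajb9, which encodes ERdj4, a cofactor also tied to degradation, read 2385, 1415 and 1858 in parental and 1445, 937 and 1066 in HML2 cells. The groups overlapped in 1 array of each, and its fall of 0.68 (SE 0.22) was at the limit of the test (adjusted p = 0.049). Dnajb9 was no longer called after removal of parental replicate 1, parental replicate 3, HML2 replicate 2 or HML2 replicate 3. Dnajc3 was no longer called after removal of any single parental array or of HML2 replicate 3. Dnajb11, which encodes ERdj3, was lower on all HML2 arrays without passing the test (-0.41, interval -0.79 to -0.03, adjusted p = 0.11) and was called with the replicate number as a block (adjusted p = 0.040). Dnajc10, which encodes the disulfide reductase ERdj5, had a difference of -0.011 (-0.28 to 0.26).

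Among protein disulfide isomerases 4 genes fell. Pdia5, an isomerase with thioredoxin-like domains, had signals of 3213, 2709 and 2812 in parental and 1430, 1053 and 1030.0 in HML2 cells. It was the largest fall in the set, at -1.29 ± 0.16 (interval -1.65 to -0.93, adjusted p = 8.4e-04), and signal + 50 fell by 59.1%. Txndc5, which encodes ERp46, read 4065, 3944 and 3755 in parental and 2354, 2718 and 2188 in HML2 cells (-0.69 ± 0.12, adjusted p = 0.0043). Pdia6, which encodes P5 and binds BiP, read 15016, 12790 and 13367 in parental and 9008, 8769 and 8477 in HML2 cells (-0.64 ± 0.10, adjusted p = 0.0022). P4hb, which encodes the archetypal isomerase and also the beta subunit of collagen prolyl 4-hydroxylase, read 15261, 15364 and 14078 in parental and 10099, 11741 and 10347 in HML2 cells (-0.47 ± 0.10, adjusted p = 0.0080). For all 4 genes every HML2 array was below every parental array, and each call held under all 17 alternative settings or subsets of arrays. Pdia5, Pdia6 and P4hb had no other tested probe set, so averaging over probe sets left their differences unchanged. A dimmer Txndc5 probe set gave -0.32 and was not called (adjusted p = 0.11).

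The other members of the family did not pass the test. Pdia3, which encodes ERp57, the partner of the lectin chaperones, had means of 14857 ± 851 and 13083 ± 1005 (SD, n = 3; log2 difference -0.18, adjusted p = 0.19). It was called with the replicate number as a block (adjusted p = 0.049) and with the mean of its probe sets (-0.87, adjusted p = 0.0021). Pdia4, which encodes ERp72, had a difference of -0.25 (interval -0.63 to 0.13), and it was called lower without HML2 replicate 1 (-0.41, adjusted p = 0.025). Ero1a, the oxidase that recharges isomerases, read 2439, 1958 and 2109 in parental and 6773, 2512 and 2605 in HML2 cells. All HML2 arrays were above the parental arrays, but HML2 replicate 1 was far above the rest, and the difference of 0.70 ± 0.34 was not called (adjusted p = 0.16). Blocking on replicate number gave a call (adjusted p = 0.036). Without HML2 replicate 1 the difference was 0.24. Its paralogue Ero1b had a difference of -0.37 (interval -0.93 to 0.18). The members of this role thus spanned -1.29 to 0.70, with 7 of 8 differences below 0.

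Neither the sensor genes Ern1 and Atf6 of the unfolded protein response nor the transcription factor gene Xbp1 was called. Xbp1, whose total messenger RNA is measured here and not its spliced form, read 6554, 5361 and 6021 in parental and 6891, 5974 and 6176 in HML2 cells (0.088 ± 0.11, interval -0.17 to 0.35, adjusted p = 0.61). Ern1, the IRE1 kinase and nuclease, read 1652, 798 and 988 in parental and 1831, 542 and 719 in HML2 cells. Replicate 1 was the highest array in both groups, and the difference was -0.27 with an interval of -1.22 to 0.68. Atf6 read 1931, 1359 and 1408 in parental and 2523, 866 and 933 in HML2 cells, with the same replicate high in both groups (-0.27, interval -1.10 to 0.56). With the replicate number as a block neither Ern1 nor Atf6 was called (adjusted p = 0.21 and 0.32). Without HML2 replicate 1, a subset that kept the high parental array, both were called lower by their brightest probe sets. Ern1 was then at -0.76 (adjusted p = 0.047) and Atf6 at -0.75 (adjusted p = 0.0063). Without both arrays numbered 1 they were at -0.48 (adjusted p = 0.042) and -0.59 (adjusted p = 0.0029), an alternative chosen after seeing the data.

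**Figure D3:**
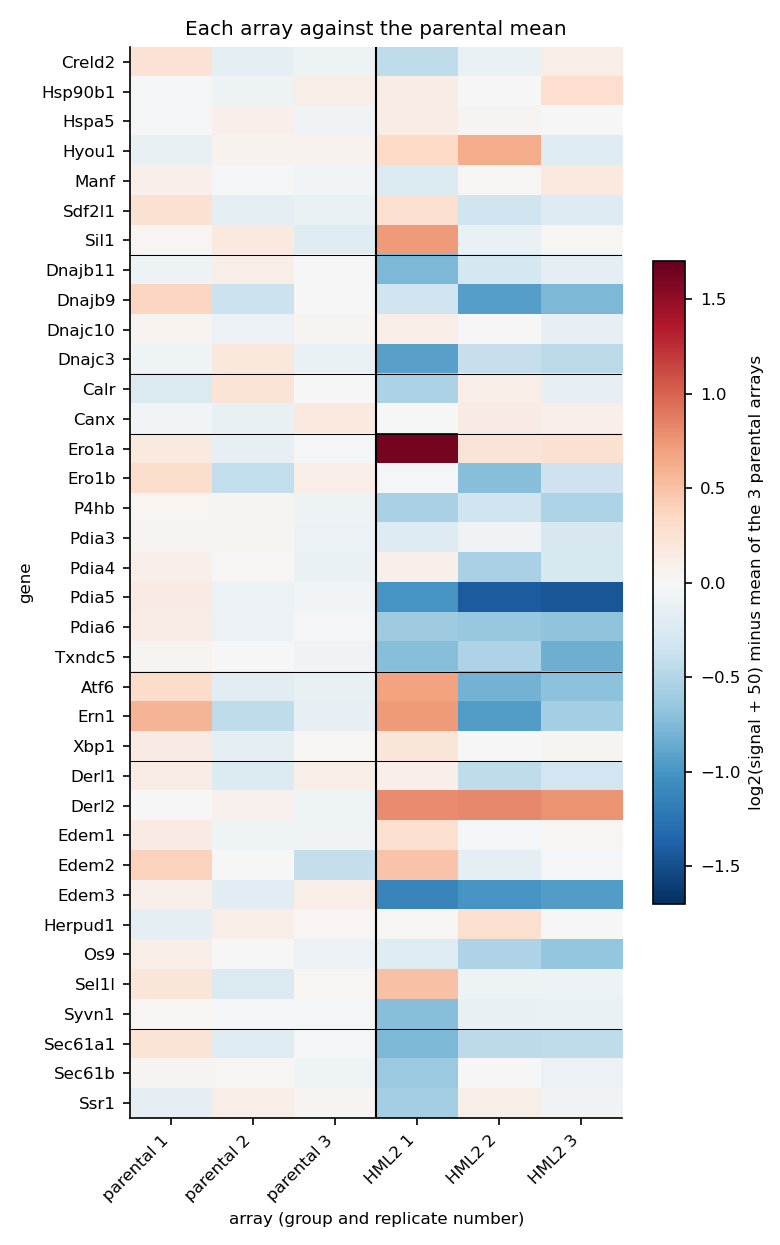
Each of the 36 genes tested on each array, as log2(signal + 50) minus the mean of the 3 parental arrays, with lines between the roles. Pdia5, Edem3, Pdia6, Txndc5 and P4hb are low on all HML2 arrays and Derl2 is high on all of them, whereas Ero1a, Atf6 and Ern1 are highest on HML2 replicate 1.

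Of the 9 degradation genes tested, Edem3 fell, Derl2 rose by its brightest probe set but not by the mean of its probe sets, and 7 were not called. Edem3, a mannosidase-like factor that marks glycoproteins for disposal, had signals of 2914, 2386 and 2959 in parental and 1225, 1337 and 1390 in HML2 cells. The groups were well apart, and Edem3 fell by 1.03 (SE 0.13, interval -1.33 to -0.73, adjusted p = 0.0011), under every alternative. A dimmer Edem3 probe set gave -0.70 and was also called. Its relatives were not called: Edem1 had a difference of 0.094 (interval -0.20 to 0.39) and Edem2 of 0.097 (-0.47 to 0.66). Derl2, one of the derlins thought to form the path out of the membrane, was the only gene of the set that rose. It read 1577, 1654 and 1503 in parental and 2778, 2809 and 2716 in HML2 cells, with almost no spread between arrays (0.79 ± 0.11, adjusted p = 0.0016). Derl1 had a difference of -0.22 (interval -0.60 to 0.15), called lower without HML2 replicate 1 (-0.38, adjusted p = 0.046).

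No gene of the ligase complex was called by its brightest probe set. Sel1l, its adaptor, had a difference of 0.11 (interval -0.34 to 0.56), and Herpud1, a stress-induced scaffold of the complex, of 0.10 (-0.20 to 0.40). The ubiquitin ligase gene Syvn1 was lower on all HML2 arrays without passing the test (-0.33, -0.73 to 0.08). The lectin Os9, which reads trimmed sugars, had signals of 930, 854 and 795 in parental and 735, 580 and 528 in HML2 cells. The groups did not overlap, yet the difference of -0.46 missed the threshold (adjusted p = 0.059). It was called with the replicate number as a block (adjusted p = 0.024) and without HML2 replicate 1 (-0.59, adjusted p = 0.0079).

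In the translocon, Sec61a1, the pore-forming subunit, read 10486, 7687 and 8752 in parental and 5234, 6550 and 6584 in HML2 cells. All HML2 arrays were below the parental arrays, and Sec61a1 fell by 0.54 (SE 0.15, adjusted p = 0.025). The call was lost without parental replicate 1 (-0.43, adjusted p = 0.083) or parental replicate 3 (-0.56, adjusted p = 0.081). Sec61b, its small partner, read 13919, 13679 and 12743 in parental and 8632, 13395 and 12590 in HML2 cells, a difference of -0.24 that was not called and was -0.049 without HML2 replicate 1. Ssr1, of the translocon-associated TRAP complex, had a difference of -0.18 and was likewise lowest on that array.

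Several genes gave different answers from different probe sets, so the choice of the brightest one matters. Of the 36 genes 22 had more than 1 tested probe set, and in 8 of these at least 1 other probe set had the opposite sign. The rise of Derl2 was of this kind: its dimmer probe set read 415, 439 and 442 in parental and 327, 342 and 271 in HML2 cells, a difference of -0.41 that was not called (adjusted p = 0.074). Averaged over both probe sets the Derl2 difference was 0.19 and no longer called. In 6 uncalled genes another probe set was called, lower for Pdia3, Canx and Derl1 and higher for Ero1a, Edem1 and Sel1l. The dimmer Pdia3 probe set went from 454 ± 65.6 to 122 ± 31.3 (-1.56, adjusted p = 7.6e-04), against -0.18 for the brightest. Sec61a1 had 6 tested probe sets, all with negative differences from -1.55 to -0.026, of which 3 were called lower. Atf6 had 2 dimmer probe sets with positive differences, 0.48 and 0.93, neither of them called. On HML2 replicates 2 and 3 the probe set at 0.48 read 478 and 470, against 453 to 568 in parental cells. The probe set at 0.93 read 291 and 258 there, against 168 to 230 in parental cells. The regions of the transcripts that the probe sets target were not analysed here. The probe sets used for Hyou1, Canx, Xbp1, Syvn1 and Derl1 carry the suffix _s_at, which marks probes that can match transcripts of more than 1 gene.

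**Figure D4:**
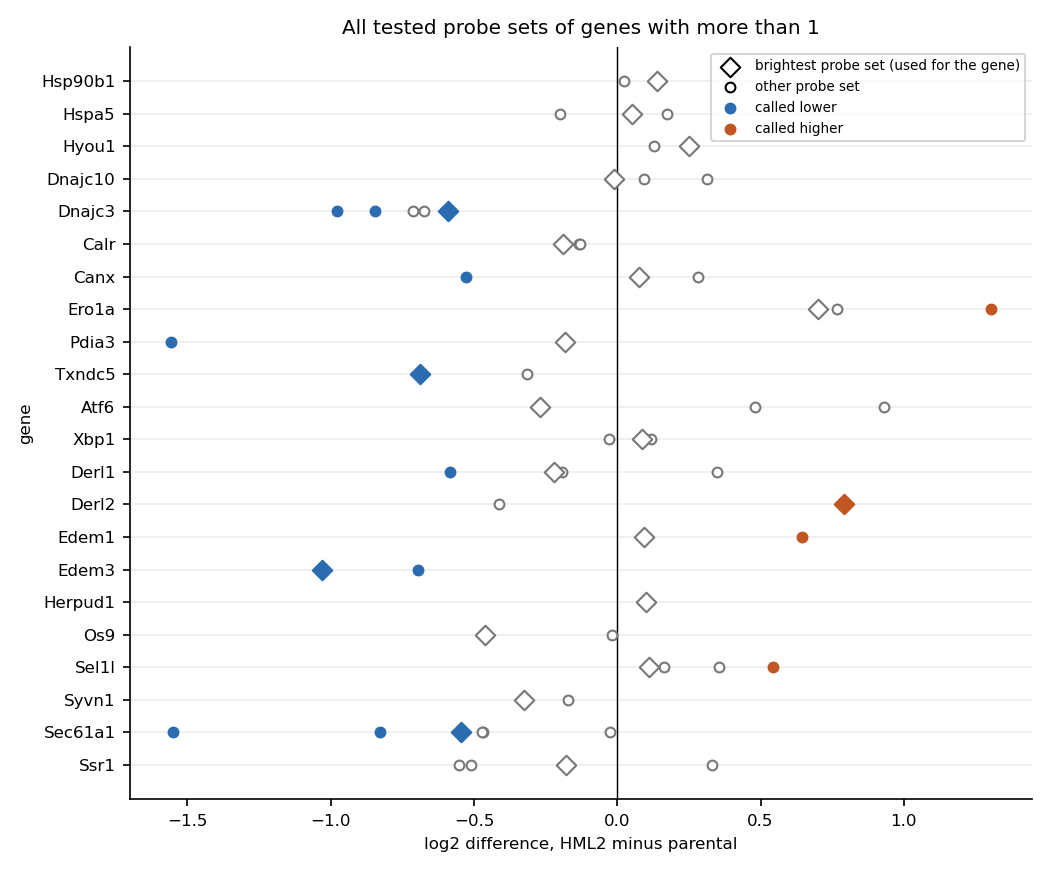
Log2 differences (HML2 minus parental) of every tested probe set for the 22 genes with more than 1. Diamonds are the brightest probe sets used for the gene and circles the others. Blue was called lower, orange called higher and open symbols not called. All 5 Dnajc3 probe sets lie below 0, whereas the 2 probe sets of Derl2 lie on opposite sides of 0.

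The differences of genes with the stress element spanned both signs. Of the 9 tested genes of the set that carry it, Pdia6 and Dnajc3 fell and the other 7 were not called. The differences of the 9 ran from -0.64 to 0.14, with a median of -0.19. Of all 12 tested genes with the element 16.7% were called lower and none higher, against 14.9% and 12.3% of all genes tested. Among tested genes of the set with a promoter available, those without the element had a median of -0.18, close to that of genes with it. Those with any of the 3 motifs had a median of -0.26, and those with none of -0.18. The 6 genes with no promoter available, Sec61a1 among them, entered none of these medians. Hspa5 and Pdia6, with the element in the promoters printed above, had differences of 0.053 and -0.64. Only 3 other tested genes had the element, Adcy3 (-0.36), Alg12 (0.27) and Pan2 (0.19), and none was called. Neither Pdia5, Edem3, P4hb nor Dnajb9 had a match of any of the 3 motifs in the window, which says only that these letters are absent from it.

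The chromosomes of the genes were set beside their differences, because genes of chromosomes 1 and 16 were lower as a whole in HML2 cells. Among 302 tested genes of chromosome 16 the median difference was -0.42 and 41.1% were called lower. Among 521 of chromosome 1 it was -0.32, with 34.7% lower. Pdia5, Dnajb11 and Sdf2l1 lie on chromosome 16, and Edem3 and Atf6 on chromosome 1. The 20 tested genes nearest to Pdia5 had a median difference of -0.53, with 11 called lower, against -1.29 for Pdia5 itself. The 20 nearest to Edem3 had a median of -0.33, with 7 called lower, against -1.03. The uncalled genes of these chromosomes were no lower than their neighbours. Dnajb11 was at -0.41 beside a median of -0.42, Atf6 at -0.27 beside -0.45 and Sdf2l1 at -0.096 beside -0.37. For the remaining genes that fell the median of the neighbours ranged from -0.20 near Sec61a1 to 0.23 near Txndc5, and it was 0.15 near Pdia6 and -0.043 near P4hb. Sel1l lay among genes that were higher, with a median of 0.67 and 11 of 20 called higher, while its own difference was 0.11. The part of chromosome-wide shifts in these differences was not tested.

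**Figure D5:**
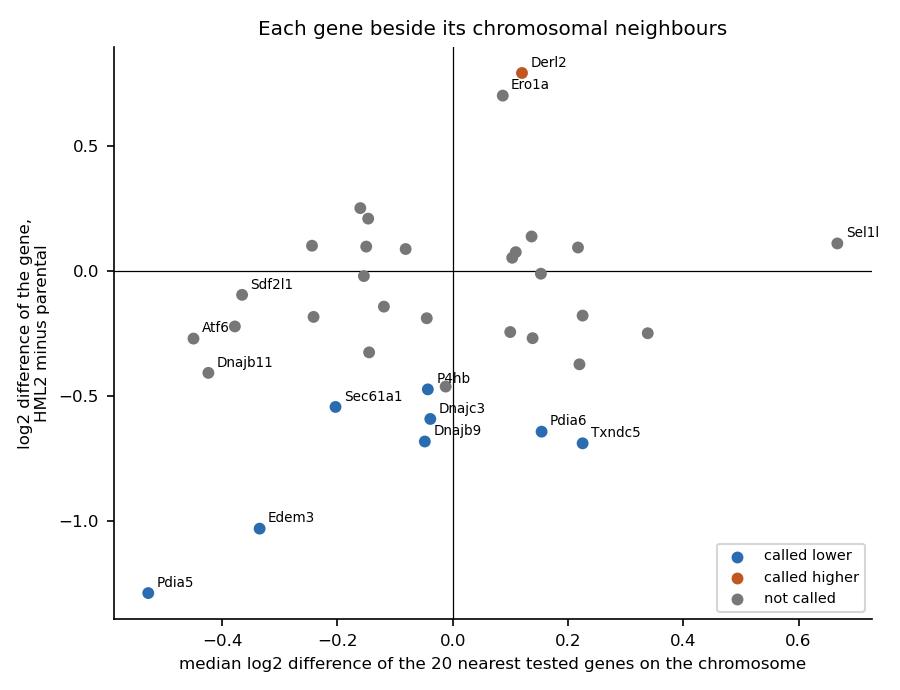
The log2 difference of each of the 36 genes tested (vertical) against the median log2 difference of the 20 nearest tested genes on its chromosome (horizontal). Pdia5 and Edem3 are low among low neighbours, whereas Pdia6 and Txndc5 are low among neighbours with medians above 0.

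Of 98 tested genes in 6 further lists of the pathway 10 rose and 12 fell, or 22.4% called against 27.2% of all genes tested, so the counts by list are a description and do not stand above the background as a whole. In the PERK branch 3 of 9 tested genes rose (33.3%, against 12.3% of all genes) and none fell. Atf4, its transcription factor, went from 8425 ± 651 to 14082 ± 2575 (log2 difference 0.73, adjusted p = 0.0058) under every alternative. Trib3 (1.68) and Chac1 (0.80), both Atf4 targets, also rose, with lost calls for each when any 1 parental array was left out. Without the signal filter neither was called (adjusted p = 0.062 and 0.059). Trib3 was also lost without HML2 replicate 3, and without HML2 replicate 1 its difference was 1.05. For the genes of this list HML2 replicate 1 exceeded the remaining HML2 arrays by a median of 0.82. Among the 6 genes of the list not called were Ddit3 (1.31, adjusted p = 0.095), Ppp1r15a (0.57, adjusted p = 0.40) and Atf3 (1.6e-04). The PERK gene Eif2ak3 itself had a difference of -0.25 (adjusted p = 0.24).

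Of 22 cytosolic and membrane degradation factors 3 fell (13.6%, against 14.9% of all genes), the ubiquitin ligase genes Rnf5 (-0.76) and Rnf139 (-0.38) and the conjugating enzyme gene Ube2j1 (-0.64), and Rad23b, a shuttle to the proteasome, rose (0.53), 4.55% of the list against 12.3% of all genes. Averaged over their probe sets Ube2j1 and Rad23b were at -0.034 and 0.076 and not called. Ube2j1 and Rnf139 also lost their calls without any 1 of the parental arrays, and Rnf139 without HML2 replicate 3. Rnf139 was not called either without the signal filter, with median centring or with no intensity trend. Of 19 genes of targeting, translocation and signal cleavage only Ssr4 of the TRAP complex was called (5.26% lower, against 14.9% of all genes). Ssr4 fell from 13983 ± 803 to 7639 ± 860 (-0.87, adjusted p = 0.0011). Of 19 genes of N-glycosylation and glucose trimming 2 rose (10.5%), the glucosyltransferase genes Alg5 (0.84) and Alg8 (0.54), and 3 fell (15.8%). Among these were Uggt1 (-0.71), which re-glucosylates misfolded glycoproteins so that calnexin and calreticulin bind them again, and the glucosidase gene Mogs (-0.51). The calls of Uggt1 and Alg5 held under every alternative. Mogs was no longer called after removal of parental replicate 2, HML2 replicate 2 or HML2 replicate 3. Alg8 lost its call after removal of parental replicate 1, parental replicate 3, HML2 replicate 2 or HML2 replicate 3, and without the signal filter.

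Of 16 other thioredoxin-fold and proline isomerase genes tested 3 fell (18.75%) and 2 rose (12.5%), against 14.9% and 12.3% of all genes. The sulfhydryl oxidase gene Qsox1 (-0.67), P4ha1 (-0.66), which encodes the catalytic partner of P4hb in collagen prolyl 4-hydroxylase, and Fkbp7 (-0.65) fell. Tmx3, a membrane-bound isomerase gene, rose (0.65) under every alternative. Qsox1, P4ha1 and Fkbp7 were no longer called after removal of any single parental array, of HML2 replicate 2 or of HML2 replicate 3. Without the signal filter none of these genes was called, and Fkbp7 also lost its call with quantile normalization and with median centring. Of 13 processing proteases, regulators and membrane-bound transcription factors 2 fell and 2 rose (15.4% each, against 14.9% and 12.3% of all genes). Creb3l2, a relative of Atf6 that raises genes of secretory transport, went from 2439 ± 515 to 528 ± 45.8 (-2.09, adjusted p = 1.4e-04; -1.18 with the mean of its probe sets). Tmbim6, an inhibitor of cell death in the endoplasmic reticulum membrane, fell (-0.53). Ufm1, a ubiquitin-like modifier, rose (0.95), as did Nfyb (0.66), a subunit of the factor that binds CCAAT. These 4 calls held under every alternative.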

How the data were processed

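Expression in 3 parental and 3 HML2 cultures was measured from 15 ug of total RNA each, on 1 array per culture. The deposited values are linear intensities; the submitters' processing notes name MAS5 as the software. Its version and settings, and a genome build, are not given here. The table held 45101 probe sets, of which 34945 had 1 gene symbol, 932 had several and 9224 were controls or had none in a 2016 annotation of the array. Symbols were updated through a RefSeq table of assembly GRCm38.p6 (34741 found). The scaling removes differences in total messenger RNA, and with no counts the number of arrays limits the precision.

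From these values log2(signal + 50) was computed, probe sets with a mean signal under 100 were left out, and the brightest probe set stood for a gene. The test was limma 3.58.1 under R 4.3.3 (lmFit, eBayes with an intensity trend, no covariates, Benjamini-Hochberg over 9361 genes), checked on simulated data. Differences are HML2 minus parental, and the offset makes those of dim genes too small. The members, role groups and pathway lists were chosen with earlier results of these data known. All 37 members may be named. Of each pathway list up to 4 called genes with the largest differences are named. Of the mammary epithelial and leukocyte marker lists the brightest marker is named, and no endothelial or lung epithelial marker is. The uncalled Eif2ak3, Ddit3, Ppp1r15a and Atf3, and the markers Epcam, Cdh1, Cd68 and Ptprc, were picked after values were seen. So were the array values of Ero1a, Os9 and Sec61b, and the promoters printed. Promoter motifs were searched with Python 3.11.15. A planned check of protein retention signals was not run.

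Arrays with the same replicate number deviated together from their group means, with correlations across genes of 0.45, 0.34 and 0.24, all above the bound of 0.1. Between different numbers the correlations were -0.38 to 0.24, the highest (0.241, parental 2 with HML2 3) just above that of the pair numbered 3 (0.239). Arrays numbered 1 correlated negatively with those of other numbers (-0.38 to -0.19), whereas numbers 2 and 3 correlated positively (0.089 and 0.241). Deviations within a group cancel out for each gene, so these correlations depend on one another. The labels do not say what the number stands for. It entered as a block in an alternative, and results are unblocked unless the block is named. Other alternatives changed the offset, filter, normalization, probe set rule, array weights, trend and arrays used.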

Additional observations from a re-analysis of the deposited data

How the results depend on the processing

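Among 612 values of the 36 genes under 17 alternatives, 545 kept their direction and side of the threshold, 17 lost a call, 21 gained one and 29 changed sign. None of the 9 called genes changed sign, and 5 of them (Pdia5, Pdia6, P4hb, Txndc5 and Edem3) kept their call throughout. Where a value changed, the cause was not tested.

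With the replicate number as a block, 11 genes of the set were lower and 2 higher, all 9 calls were kept, and Dnajb11, Pdia3, Ero1a and Os9 were gained. Array weights gave 14 lower genes, and numbers of all genes called higher in HML2 and all genes called lower in HML2 of 2422 and 2631. The mean of all probe sets gave 0 higher genes, lost Derl2 and Dnajb9 and gained Pdia3 (-0.87). Leaving out both arrays numbered 1, chosen after seeing the data, gave 2 higher and 12 lower genes, when 18.1% and 19.7% of all genes tested were. Ero1a was gained as higher and Pdia4, Ern1, Atf6 and Os9 as lower. Dnajb9 also lost its call with no filter, quantile normalization, median centring and no intensity trend, and Dnajc3 with median centring. When 1 array was left out, lower genes of the set numbered 5 to 13, the median difference over all 36 genes tested ranged from -0.20 to -0.11, and all genes numbered 590 to 1577 higher and 795 to 1845 lower. Median centring removed a shift of -0.059 between the groups.

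The changes of sign were confined to 12 uncalled genes, with adjusted p-values of 0.16 to 0.99. With median centring Manf was at 0.039 and Dnajc10 at 0.048. With the mean of all probe sets Dnajc10 was at 0.13, Canx at -0.057 and Atf6 at 0.38. With array weights Hyou1 was at -0.016, Manf at 0.14, Creld2 at 0.088, Canx at -0.0075 and Sel1l at -0.079. Without both arrays numbered 1 Sil1 was at -0.028, Manf at 0.13 and Creld2 at 0.13. With 1 array left out the ranges were -0.28 to 0.035 for Sdf2l1, -0.11 to 0.093 for Manf, -0.071 to 0.050 for Dnajc10, -0.76 to 0.072 for Ern1, -0.084 to 0.21 for Sel1l, -0.11 to 0.29 for Edem2, -0.047 to 0.37 for Sil1, -0.27 to 0.0025 for Creld2 and -0.32 to 0.018 for Ssr1.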
